A study of Homo sapiens with 4 samples.

Results

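The Rab genes of U937 cells were described here, with and without the phorbol ester PMA. They were taken as the entries of the authors' gene count table whose symbol is RAB followed by a number and at most 1 letter, which gave 64 of 60662 entries. Pseudogene, antisense and read-through symbols do not have that form, although 1 member, RAB1C, is annotated as a processed pseudogene. RNA was measured in 4 libraries of U937, an established human myeloid line derived from a histiocytic lymphoma. There were 2 libraries of cells kept in 10 nM PMA for 72 h and 2 libraries of cells kept without PMA for the same 72 h, 1 of each from lot 1 and from lot 2. PMA activates protein kinase C and turns dividing U937 cells into attached, macrophage-like cells. No gene was altered in either group. The labels do not say that the lots were grown as separate cultures, so every p-value here rests on library-to-library spread that may be technical only. All cells are of 1 line, and the spread between lines or donors was not measured.

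Rab proteins are small GTPases that sit on the membranes of the secretory and endocytic routes. Exchange factors load them with GTP, GTPase-activating proteins switch them off, and GDP dissociation inhibitors carry the prenylated protein between membranes. In the GTP-bound form each Rab recruits its own effectors (tethers, motors and fusion factors), so the set of Rabs on a membrane marks its identity. In macrophages they are known for phagosome maturation, recycling of receptors to the surface and granule release.

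The libraries held 35739833 and 50822971 counts with PMA and 54915928 and 41308603 counts without. Levels are given as CPM, the count divided by the library size in megareads after edgeR's TMM scaling. A count of 0 allows up to 3 counts, which is 0.0921 and 0.0649 CPM with PMA and 0.0475 and 0.0695 CPM without, and this covers counting error only. All 5 myeloid markers checked (SPI1, CD33, PTPRC, LYZ, CSF3R) were above 1 CPM, with sums of 753 to 911 CPM with PMA and 560 to 1272 CPM without. The T cell, erythroid and fibroblast markers were at 0 in every library, and the epithelial ones reached 0.0216 CPM. Of the B cell markers, MS4A1 was at 0 in every library, and CD79A was at 2.52 and 6.88 CPM with PMA and 1.68 and 2.41 CPM without. In bulk RNA, fewer cells of a type and less RNA per cell cannot be told apart.

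PMA cells had far less RAB44, RAB33A and RAB32 and far more RAB7B than untreated cells. RAB3C was at 0 counts in both PMA libraries and low in the untreated ones, and RAB17 was low in the PMA libraries and at 0 counts in both untreated ones. These 6 genes passed an adjusted p of 0.05 by the quasi-likelihood test of edgeR (Benjamini-Hochberg adjustment over all 16451 genes tested). RAB7B and RAB17 were higher, which is 3.85% of the 52 Rab genes tested, against 4.29% of all genes. The other 4 were lower, which is 7.69% of the Rab genes, against 2.02% of all genes. Together 11.5% of the Rab genes were called, against 6.3% of all genes. Among genes that averaged 10 CPM or more the shares were close, with 4 of 39 Rab genes called (10.3%), against 9.2% of 9200 genes. Since 6 and 4 Rab genes make up these shares, they are descriptions and were not tested against other genes.

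The count differed between tests and with single libraries left out. With the lot as a replicate block 4 of 52 Rab genes were called (7.69%, against 5.08% of all genes), and RAB17 and RAB3C were lost. DESeq2 called 18 (34.6%, against 23.6% of all genes), and all 6 were among them. Without untreated lot 1, 10 Rab genes were higher (19.2%, against 10.5% of all genes) and 4 lower (7.69%, against 6.21%). Without PMA lot 2, 1 was higher (1.85%, against 2.35%) and 2 were lower (3.7%, against 0.438%). At an unadjusted p under 0.05, 14 Rab genes were higher (26.9%, against 14.6% of all genes) and 6 were lower (11.5%, against 12.5%).

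Not all members could be tested. Of the 64, 7 were at 0 in all 4 libraries (RAB3B, RAB9B, RAB19, RAB25, RAB36, RAB39B and RAB42), and 5 more had too few counts (RAB26, RAB34, RAB39A, RAB40A and RAB41). Each of those 5 was at 0 in both PMA libraries and had counts in 1 untreated library. Among the 52 that were tested, 44 passed the filter on low counts in both groups, 4 passed through the PMA libraries only (RAB17, RAB30, RAB38, RAB43) and 2 through the untreated libraries only (RAB3C, RAB6B). RAB15 and RAB1C passed through 1 library of each group. A gene that passed through the group where it is high had to differ, so the counts over the 52 are descriptions.

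Both PMA libraries lay above both untreated libraries for 29 Rab genes (55.8%, against 31% of all genes), and below both for 9 (17.3%, against 29.4%). RAB17, RAB30, RAB38 and RAB43 are among the 29, and RAB3C and RAB6B among the 9. Each of them passed the filter through 1 group only. The log2 fold change was positive for 39 (75%, against 50% of all genes) and negative for 13. Its median was 0.57, against -0.00043 over all genes tested. RAB17 and RAB3C lie at the ends of that order, so setting them to their bounds leaves the median at 0.57. Upper-quartile scaling shifted the median of all genes to -0.17 and that of the Rab genes to 0.40. Among genes that averaged 10 CPM or more, 76.9% of 39 Rab genes and 52.1% of 9200 genes had a positive log2 fold change. Summed over the 64 genes, the Rab level was 3668 and 3144 CPM with PMA and 2578 and 2398 CPM without. That was 0.334% and 0.286% of all counts with PMA and 0.297% and 0.250% without, so the groups overlapped on that scale and did not overlap in CPM. With 2 libraries a group, an exact permutation test of such a sum cannot reach a p of 0.05.

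**Figure D1:**
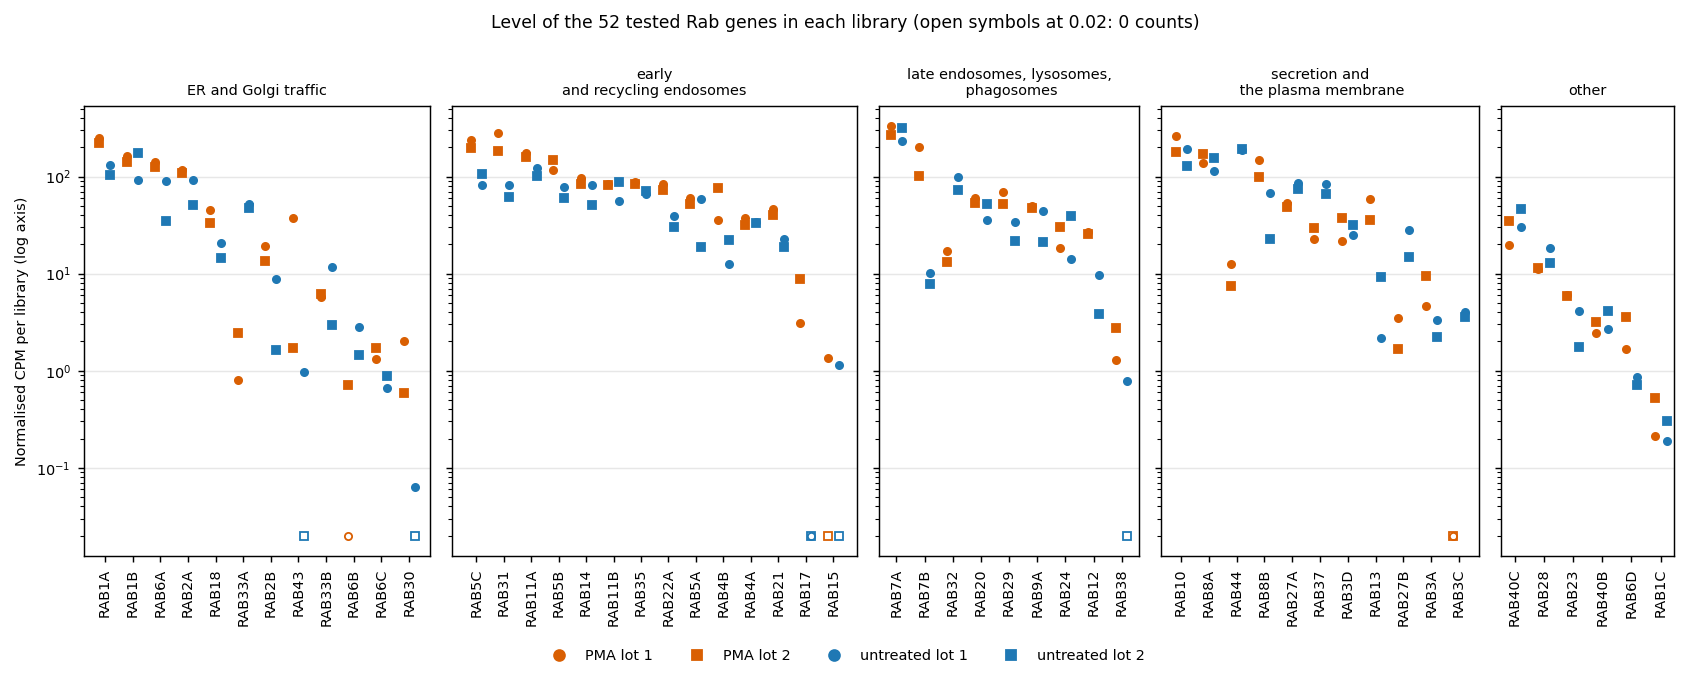
Level of each of the 52 tested Rab genes in every library (y axis, normalised CPM, log axis), grouped by role, with PMA in orange left of untreated in blue, circles for lot 1 and squares for lot 2, and open symbols at the foot for 0 counts. RAB7B and RAB17 stood higher with PMA, and RAB44, RAB33A, RAB32 and RAB3C lower, with no overlap between groups.

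The same gene headed the order of Rab levels in both groups, and the genes below it differed in part. Per kilobase of transcript, RAB7A, the Rab of late endosomes and lysosomes, was first in both groups, at 132 CPM per kilobase with PMA and 122 without. In PMA cells RAB5C (113), RAB1A (96.9), RAB1B (76.3), RAB10 (62.4), RAB31 (57.3), RAB8A (54.0) and RAB7B (50.2) followed. In untreated cells RAB32 (70.6), RAB1B (66.6), RAB5C (49.5), RAB8A (48.0), RAB1A (48.0), RAB10 (45.3) and RAB44 (44.7) followed. Thus RAB7B and RAB31 were among the 8 highest with PMA, and RAB32 and RAB44 were among the 8 highest without. The values are means of 2 libraries, and neighbours in these orders often differ by less than the libraries of a group.

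Among the Rabs of late endosomes, lysosomes and phagosomes, RAB7B rose and RAB32 fell. RAB7B sits on late endosomes, directs traffic from endosomes to the trans-Golgi network, and is known in macrophages for restraining Toll-like receptor signalling. It was at 202 and 101 CPM in PMA lots 1 and 2, against 10.0 and 7.81 CPM in untreated lots 1 and 2. The lower PMA value was far above the higher untreated one, although PMA lot 1 was well above PMA lot 2. The log2 fold change was 4.08 ± 0.51 (SE) with an adjusted p of 0.0259 in edgeR's quasi-likelihood test, and it was called in 14 of 15 alternative settings. The exception was a threshold of 0.01, at which no gene of the table passed.

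RAB32, which with its relative RAB38 builds lysosome-related organelles such as melanosomes and acts against some intracellular bacteria, went the other way. It was at 17.1 and 13.1 CPM in PMA cells, against 99.4 and 72.4 CPM in untreated cells. The groups were far apart, and the lots kept the same order in both. Its log2 fold change was -2.51 ± 0.39 (SE), with an adjusted p of 0.0357 in edgeR's quasi-likelihood test. That call rested on both PMA libraries, since it was lost without PMA lot 1 (adjusted p = 0.136) and without PMA lot 2 (adjusted p = 0.237). RAB38 itself was low, at 1.29 and 2.73 CPM with PMA and 0.775 and 0 CPM without, and it was not called.

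RAB7A showed no separation. It was at 328 and 266 CPM with PMA and 234 and 314 CPM without, so the groups overlapped. Its log2 fold change of 0.12 ± 0.32 (SE, adjusted p = 0.858, edgeR) turned negative, at -0.065, with upper-quartile scaling. The remaining tested members of the group were RAB9A (retrieval of mannose-6-phosphate receptors), RAB12 (degradation of recycling receptors), RAB20 (phagosome maturation), RAB24 (autophagy) and RAB29 (a partner of the kinase LRRK2). Among them RAB12 was at 27.1 and 25.5 CPM with PMA and 9.70 and 3.85 CPM without, and RAB29 at 68.5 and 52.7 CPM with PMA and 33.7 and 21.6 CPM without. In both genes the groups did not overlap, with adjusted p-values of 0.111 and 0.159 in edgeR's test. Of 9 tested members of this role group, 1 was called higher (11.1%, against 4.29% of all genes) and 1 lower (11.1%, against 2.02%), and the median log2 fold change was 0.58.

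The promoters of the RAB7 pair and of the other called genes with a window are shown because RAB7A and RAB7B share a subfamily and only RAB7B was called. The difference between their fold changes was not tested. Each line is the 250 bases before a gene start in RefSeq, build GRCh38.p14, read 5′ to 3′ on the gene's strand. RAB7B has 2 such starts. Capitals mark matches to a GC box (GGGCGG, or CCGCCC where it lies on the other strand) or a CCAAT box.
RAB7B, window 1 (chr1:205994458-205994707, minus strand): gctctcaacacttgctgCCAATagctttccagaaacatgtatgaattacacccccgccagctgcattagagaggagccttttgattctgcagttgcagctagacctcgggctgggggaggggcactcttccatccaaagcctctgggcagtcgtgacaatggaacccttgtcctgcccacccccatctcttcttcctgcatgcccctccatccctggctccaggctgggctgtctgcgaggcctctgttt
RAB7B, window 2 (chr1:206003396-206003645, minus strand): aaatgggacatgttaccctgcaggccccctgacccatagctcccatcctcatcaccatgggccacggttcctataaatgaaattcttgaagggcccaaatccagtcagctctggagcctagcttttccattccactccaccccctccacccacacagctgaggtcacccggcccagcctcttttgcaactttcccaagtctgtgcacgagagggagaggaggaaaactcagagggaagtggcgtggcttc
RAB7A (chr3:128725933-128726182, plus strand): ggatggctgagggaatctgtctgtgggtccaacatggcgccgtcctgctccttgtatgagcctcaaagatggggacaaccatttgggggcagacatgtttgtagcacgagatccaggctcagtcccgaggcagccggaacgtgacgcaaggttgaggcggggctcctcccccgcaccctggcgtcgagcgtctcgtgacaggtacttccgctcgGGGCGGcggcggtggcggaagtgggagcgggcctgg
RAB32 (chr6:146543583-146543832, plus strand): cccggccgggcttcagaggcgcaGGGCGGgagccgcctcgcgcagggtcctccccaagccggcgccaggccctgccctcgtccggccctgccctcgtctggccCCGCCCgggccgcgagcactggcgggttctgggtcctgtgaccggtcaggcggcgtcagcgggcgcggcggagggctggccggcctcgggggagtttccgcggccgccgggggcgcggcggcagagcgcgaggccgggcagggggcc
RAB17 (chr2:237590735-237590984, minus strand): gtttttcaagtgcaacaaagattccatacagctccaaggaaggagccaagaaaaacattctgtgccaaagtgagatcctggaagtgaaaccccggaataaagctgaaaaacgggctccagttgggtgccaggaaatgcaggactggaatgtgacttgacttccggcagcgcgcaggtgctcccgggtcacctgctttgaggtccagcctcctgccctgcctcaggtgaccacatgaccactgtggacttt
RAB3C (chr5:58582825-58583074, plus strand): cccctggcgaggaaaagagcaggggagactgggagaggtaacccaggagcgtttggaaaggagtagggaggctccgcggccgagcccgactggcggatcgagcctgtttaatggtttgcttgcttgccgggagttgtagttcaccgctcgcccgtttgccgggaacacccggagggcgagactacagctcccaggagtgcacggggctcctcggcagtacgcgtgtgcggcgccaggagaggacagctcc

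RAB7A held 1 GC box, 36 bases before its start, and RAB32 held 2, while the RAB7B windows held 1 CCAAT box and no GC box. RAB17 and RAB3C held neither. The GC box was searched on both strands in all windows of each gene. It was in 35 of the 41 tested Rab genes that had a window (85.4%), against 46.2% of 27305 genes in the same table, and in 1 of the 4 called genes that had one. The 27305 genes were not limited to those tested here, and the share over tested genes was not computed for any motif. The CCAAT box was in 13 of 41 (31.7%, against 37.0% of genes). An AP-1 site (TGANTCA) was in 4 of 41 (9.76%, against 8.06%), a PU.1 core (GAGGAAG) in 6 (14.6%, against 13.4%) and an E-box (CACGTG) in 5 (12.2%, against 7.73%). The EGR motif (GCGTGGGCG) was in none of the 41, against 0.886% of genes. The last 4 motifs were in none of the windows of the 4 called genes, which says only that these letters are not there. A match is a run of letters and not a measured binding site. Of the 64 Rab genes, 50 had a window.

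Among the Rabs of secretion and the plasma membrane, RAB44 and RAB3C fell, and 3 more members that act on granules had lower values without a call. RAB44 is a large Rab with EF-hand and coiled-coil parts, expressed in blood and bone marrow cells. In mouse it acts in mast cell degranulation and osteoclast formation. Its level was 12.4 and 7.44 CPM in PMA cells, against 188 and 194 CPM in untreated cells. The untreated libraries were nearly equal, and both PMA libraries were far below them. The mean was 9.93 ± 3.53 CPM with PMA and 191 ± 4.12 CPM without (SD, n = 2 each), with a log2 fold change of -4.27 ± 0.43 (SE) and an adjusted p of 0.0221 in edgeR's quasi-likelihood test, the smallest of all Rab genes. It was called in 14 of 15 settings, again with the threshold of 0.01 as the exception.

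In the order of protein-coding genes on chromosome 6 (RefSeq, build GRCh38.p14), RAB44 lies beside CDKN1A, which encodes the cell cycle inhibitor p21. CDKN1A averaged 1176 ± 34.9 CPM with PMA and 6.45 ± 1.00 CPM without (SD, n = 2 each), with a log2 fold change of 7.51 ± 0.38 (SE, adjusted p = 0.0148, edgeR). Thus these neighbours moved in opposite directions. On the other side of RAB44 lie CPNE5 (log2 fold change 0.43 ± 0.89, adjusted p = 0.808, edgeR) and then PPIL1 (-1.55 ± 0.36, adjusted p = 0.0690, edgeR), neither of them called.

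RAB3C, a Rab of regulated exocytosis best known from synaptic vesicles, was at 0 counts in both PMA libraries, against 255 and 154 counts in untreated lots 1 and 2. That is 4.03 and 3.57 CPM without PMA. Against the floor of 3 counts per library it was at least 48.5-fold lower with PMA. The adjusted p was 0.0389 in edgeR's test and 0.0730 with the lot as a block. The call was also lost without PMA lot 2 (adjusted p = 0.0580) and without untreated lot 2 (adjusted p = 0.0544). RAB3D, of granule exocytosis, was at 21.6 and 37.4 CPM with PMA and 25.1 and 31.4 CPM without, so the groups overlapped. RAB3A, also of regulated exocytosis, was at 4.60 and 9.39 CPM with PMA and 3.32 and 2.25 CPM without, with no call.

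RAB27A and RAB27B dock secretory granules and lysosome-related organelles at the plasma membrane. RAB27B was at 3.47 and 1.67 CPM with PMA and 28.3 and 14.8 CPM without. The groups did not overlap, and the log2 fold change was -3.07 ± 0.66 (SE), with adjusted p-values of 0.0618 in edgeR's test and 0.0502 with the lot as a block. RAB27A was at 53.1 and 48.9 CPM with PMA and 86.1 and 74.1 CPM without, again without overlap (log2 fold change -0.65 ± 0.32, adjusted p = 0.275, edgeR). RAB37, a Rab of secretory granules, was at 22.7 and 29.8 CPM with PMA and 84.1 and 66.5 CPM without (log2 fold change -1.52 ± 0.37, adjusted p = 0.0745, edgeR). These 3 genes thus had lower values in both PMA libraries and missed the threshold. Together with RAB44 and RAB3C they made 5 of 11 tested members with both PMA libraries below both untreated ones (45.5%, against 29.4% of all genes). Of these, RAB3C passed the filter through the untreated libraries only.

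The other members of the group had higher or overlapping values. RAB13, a Rab of cell junctions and polarised transport, was at 58.7 and 35.8 CPM with PMA and 2.17 and 9.13 CPM without (log2 fold change 3.07 ± 0.81, adjusted p = 0.0869, edgeR). Its exons share 682 bases on the same strand with AL358472.6, an entry with 7617 counts over the 4 libraries, so the split between them is uncertain. RAB8B, of transport from the Golgi to the surface, was at 149 and 98.9 CPM with PMA and 66.9 and 22.5 CPM without, and it was not called (adjusted p = 0.206, edgeR). RAB10, of basolateral and recycling transport, was at 263 and 178 CPM with PMA and 193 and 127 CPM without, and RAB8A at 136 and 169 CPM with PMA and 115 and 157 CPM without. Both overlapped between groups. RAB8A had a log2 fold change of 0.17 ± 0.33 (SE), which turned to -0.011 with upper-quartile scaling. Over the role group the median log2 fold change was 0.06, and the summed level was 725 and 616 CPM with PMA and 797 and 702 CPM without. That was 0.0661% and 0.0561% of all counts with PMA and 0.0917% and 0.0733% without. The groups thus overlapped in CPM and did not overlap as a share of counts.

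**Figure D2:**
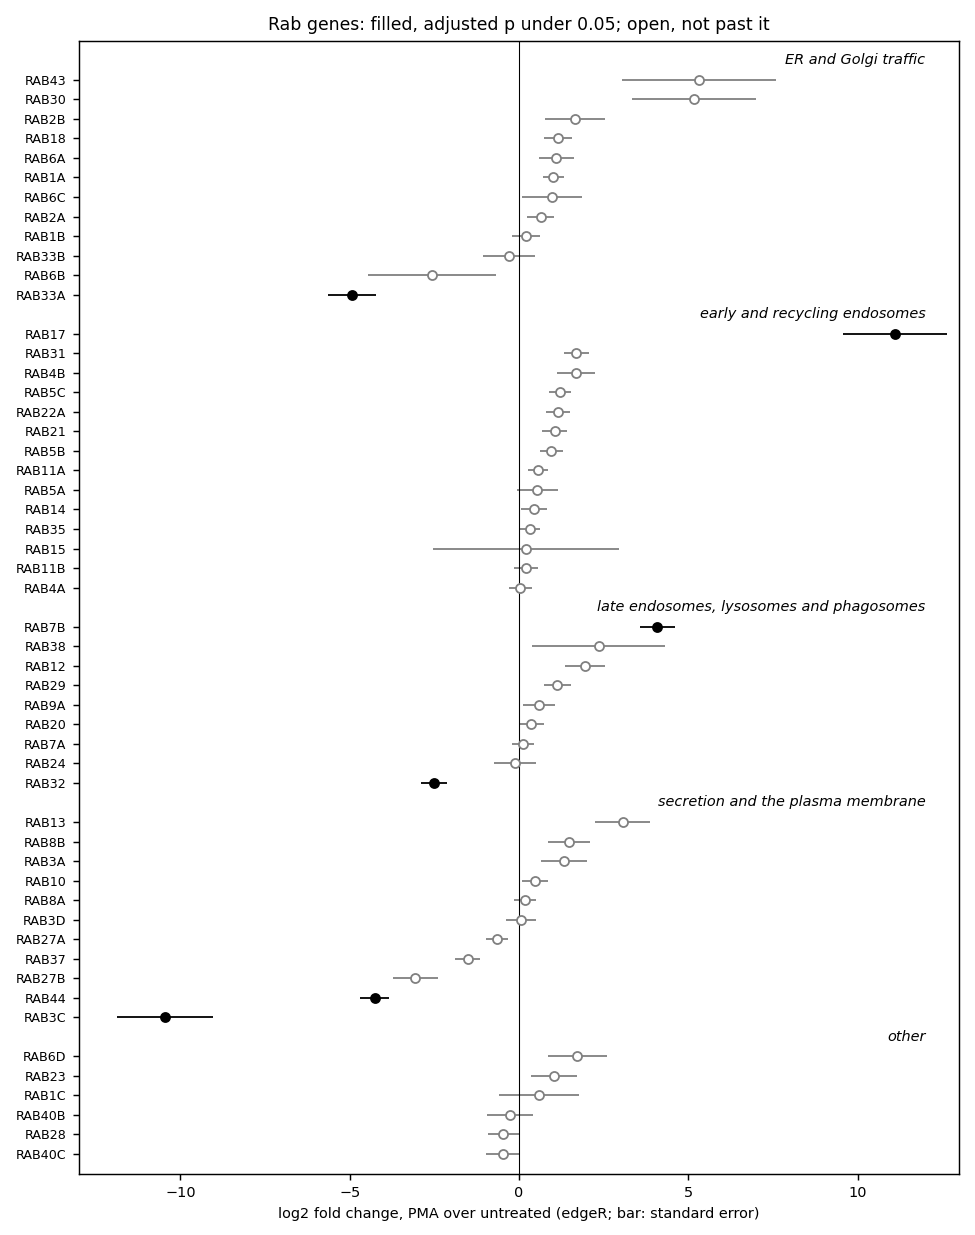
Log2 fold change of PMA over untreated for the 52 tested Rab genes (x axis, edgeR estimate, bar for 1 standard error), grouped by role (y axis), with filled points for an adjusted p under 0.05. RAB17 and RAB3C lie at 11.10 and -10.46, which are fitted values against a group at 0 and not measured folds, and the 14 early and recycling Rabs lie right of 0 (50% of all genes do), of which RAB4A, RAB5A, RAB11B and RAB15 were below 0 in some other settings.

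Among the Rabs between the endoplasmic reticulum and the Golgi, RAB33A fell and most others had higher values without a call. RAB33A is found at the Golgi and on secretory vesicles, and its close relative RAB33B binds the autophagy factor ATG16L1. RAB33A was at 0.798 and 2.47 CPM with PMA, against 52.6 and 47.9 CPM without. It had the largest negative log2 fold change among Rab genes with counts in both groups, -4.93 ± 0.71 (SE), with an adjusted p of 0.0310 in edgeR's quasi-likelihood test. RAB33B was at 5.74 and 6.12 CPM with PMA and 11.6 and 2.97 CPM without, so its PMA values lay between the untreated ones.

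RAB1A and RAB1B act in transport from the endoplasmic reticulum to the Golgi. RAB1A was at 252 and 222 CPM with PMA and 131 and 104 CPM without. Both PMA libraries were above both untreated ones, with a log2 fold change of 1.01 ± 0.31 (SE) and an adjusted p of 0.114 in edgeR's test. Its exons share 757 bases with CEP68 on the opposite strand, so without strand information the reads of these genes could not be told apart. RAB1B was at 164 and 143 CPM with PMA and 92.7 and 175 CPM without, so the groups overlapped, and its log2 fold change of 0.20 turned to -0.25 without untreated lot 1. RAB6A, a Golgi Rab, was at 141 and 127 CPM with PMA and 90.3 and 34.6 CPM without, and RAB18, known from lipid droplets, at 44.7 and 32.9 CPM with PMA and 20.7 and 14.4 CPM without. RAB2A and RAB2B, of early Golgi traffic, also had both PMA libraries above both untreated ones, without a call. RAB30, another Golgi Rab, was at 2.03 and 0.584 CPM with PMA and 0.0633 and 0 CPM without (adjusted p = 0.155, edgeR). RAB6B was at 0 and 0.714 CPM with PMA and 2.85 and 1.46 CPM without. In the role group 8 of 12 tested members (66.7%, against 31% of all genes) had both PMA libraries above both untreated ones, and the median log2 fold change was 0.99. These 8 include RAB30 and RAB43, which passed the filter through the PMA libraries only, so their place among them is not independent of the filter. They also include RAB6C, whose reads may belong to RAB6A.

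RAB6C and RAB6D are uncertain. Their coding sequences are 96.3% and 96.5% identical to that of RAB6A and 99.5% identical to each other, so reads can be assigned to the wrong copy. RAB6C was listed at 1.32 and 1.71 CPM with PMA and 0.665 and 0.881 CPM without, and RAB6D at 1.66 and 3.55 CPM with PMA and 0.854 and 0.719 CPM without, and neither was called.

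RAB43 depends on how reads were split with a read-through entry. RAB43, of transport between the endoplasmic reticulum and the Golgi, had 1221 and 80 counts with PMA and 61 and 0 counts without, while the entry ISY1-RAB43 had 0 and 1948 counts with PMA and 1430 and 294 counts without. In PMA lot 1 all counts stood under RAB43, and in the other 3 libraries most stood under ISY1-RAB43. These entries share 3956 exon bases. RAB43 alone had a log2 fold change of 5.30 ± 2.27 (SE, adjusted p = 0.219, edgeR). Summed, they had 37.5 and 43.9 CPM with PMA and 23.6 and 6.82 CPM without, with a log2 fold change of 1.42 ± 0.66 (SE, adjusted p = 0.256, edgeR). RAB4B, of rapid recycling, was at 35.7 and 77.1 CPM with PMA and 12.7 and 22.4 CPM without, and RAB4B-EGLN2 was at 43.6 CPM in untreated lot 2 and at 0 in the other 3 libraries. RAB4B alone had a log2 fold change of 1.68 ± 0.56 (SE, adjusted p = 0.136, edgeR). Summed with RAB4B-EGLN2 and MIA-RAB4B it was at 37.4 and 77.9 CPM with PMA and 16.6 and 70.9 CPM without, so the groups overlapped, and the log2 fold change was 0.40 ± 0.78 (SE, adjusted p = 0.797, edgeR).

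**Figure D3:**
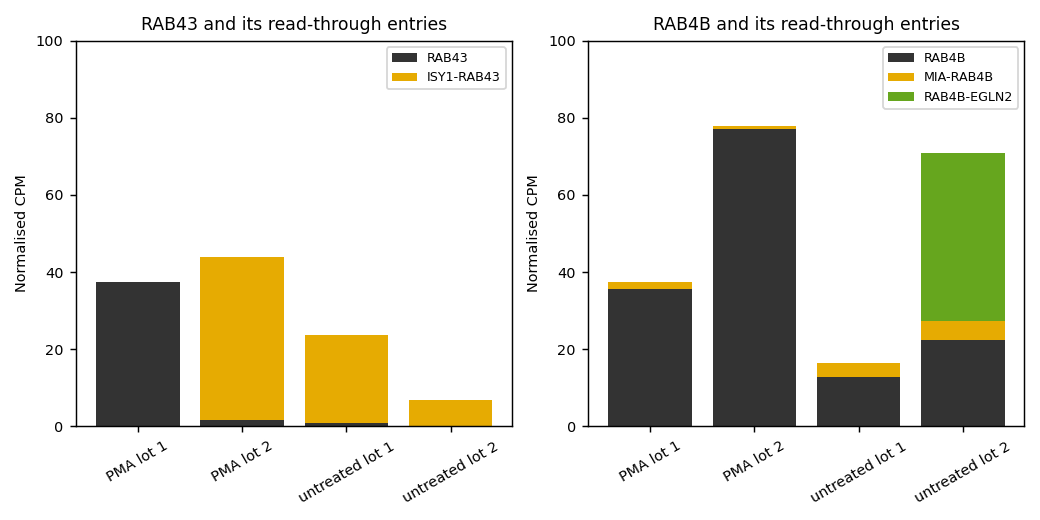
Normalised CPM (y axis) of RAB43 (left) and RAB4B (right) with the read-through entries that contain them, stacked per library with PMA left of untreated. RAB43 took all 37.5 CPM in PMA lot 1 and 1.73 CPM in PMA lot 2, where ISY1-RAB43 took 42.1 CPM.

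Among the Rabs of early and recycling endosomes, 1 rose (7.14%, against 4.29% of all genes), and all 14 tested members had a positive log2 fold change, against 50% of all genes. In some alternative settings 4 of them turned negative, with lowest values of -0.15 for RAB11B, -0.16 for RAB4A, -0.065 for RAB5A and -7.90 for RAB15. Both PMA libraries were above both untreated ones for 10 of them (71.4%, against 31% of all genes), and the median log2 fold change was 0.75. These 10 include RAB17, which passed the filter through the PMA libraries only, so its place among them is not independent of the filter. They also include RAB4B, whose groups overlapped once its read-through entries were summed. The summed level of the 15 members was 1344 and 1218 CPM with PMA and 738 and 664 CPM without, so the PMA libraries were clearly above. The called gene, RAB17, is known from recycling endosomes of polarised epithelial cells. RAB17 had 100 and 406 counts with PMA (3.07 and 8.78 CPM), against 0 counts in both untreated libraries. It was at least 101-fold higher with PMA against the floor of 3 counts per library. The adjusted p was 0.0393 in edgeR's test, 0.0564 with the lot as a block and 0.0854 without PMA lot 2. The epithelial markers EPCAM, KRT19 and CDH1 were at 0 in these libraries, apart from 1 count of EPCAM in PMA lot 2.

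RAB31, which moves cargo between the trans-Golgi network and endosomes, came nearest to a call among the other members of this group. It was at 280 and 185 CPM with PMA, against 82.3 and 61.9 CPM without. The groups were well apart, with a log2 fold change of 1.69 ± 0.37 (SE) and adjusted p-values of 0.0632 in edgeR's test and 0.0591 with the lot as a block. It was called in 5 of 15 alternative settings. The RAB5 genes drive fusion of early endosomes. RAB5C was at 237 and 196 CPM with PMA and 81.8 and 107 CPM without (log2 fold change 1.19 ± 0.32, adjusted p = 0.0901, edgeR), and RAB5B at 118 and 149 CPM with PMA and 78.7 and 59.7 CPM without. RAB5A was at 60.3 and 52.5 CPM with PMA and 59.0 and 18.9 CPM without, so its groups overlapped.

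RAB22A (sorting at early endosomes) was at 84.0 and 71.9 CPM with PMA and 39.7 and 30.3 CPM without, and RAB21 (integrin uptake) at 46.6 and 40.0 CPM with PMA and 22.8 and 18.9 CPM without. Neither overlapped between groups, and neither was called, with adjusted p-values of 0.112 and 0.147 in edgeR's test. RAB11A, of slow recycling, was at 173 and 157 CPM with PMA and 123 and 102 CPM without, whereas RAB11B was at 84.1 and 81.3 CPM with PMA and 55.8 and 87.8 CPM without. RAB14 and RAB35, which act between the Golgi, endosomes and the surface, had log2 fold changes of 0.44 and 0.33. RAB4A, of rapid recycling, was at 37.7 and 31.6 CPM with PMA and 34.1 and 33.3 CPM without, so the PMA values enclosed the untreated ones. RAB15 had counts in lot 1 only.

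The 9 members not placed in the role groups above held no call among 6 tested in edgeR's test. None passed an unadjusted p under 0.05, and none was called by DESeq2 or limma-voom. The 6 include RAB6D, the near copy of RAB6A described above, and RAB1C, the entry annotated as a processed pseudogene. Their median log2 fold change was 0.16. RAB28, known from cilia, was at 11.1 and 11.5 CPM with PMA and 18.3 and 12.9 CPM without. RAB40C, whose family carries a SOCS box for ubiquitin ligase assembly, was at 19.5 and 35.2 CPM with PMA and 30.1 and 46.7 CPM without. RAB23, a regulator of Hedgehog signalling, was at 6.08 and 5.88 CPM with PMA and 4.11 and 1.76 CPM without.

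Within subfamilies, the shares of 1 or more members did not overlap between the groups for RAB7, RAB33, RAB27, RAB3, RAB4, RAB2 and RAB8. The same held for RAB1, RAB6 and RAB40, and not for RAB5 and RAB11. With 2 libraries a group, such a separation can arise by order alone, and larger subfamilies have more members that could show it. The list of separated subfamilies is given without a share over other genes, so it is a description only. RAB1A made up 55.7% and 55.8% of RAB1 with PMA, against 53.5% and 32.7% without, so untreated lot 1 lay only narrowly below. RAB6B made up 0% and 0.329% of RAB6 with PMA, against 1.86% and 2.40% without. It had only 0 and 33 counts with PMA and 180 and 63 counts without. Its exons share 381 bases on the opposite strand with SRPRB, an entry with 8217 counts over all libraries, so without strand information the split is uncertain. RAB40B made up 8.03% and 5.99% of RAB40 with PMA, against 5.89% and 5.79% without, so the groups were separated only narrowly. These shares are of summed CPM per kilobase and were not tested. RAB7B made up 31.4% and 22.0% of the RAB7 pair with PMA, against 3.09% and 1.82% without. RAB33A made up 33.5% and 59.4% of the RAB33 pair with PMA, against 94.3% and 98.3% without. RAB27B made up 3.01% and 1.59% of the RAB27 pair with PMA, against 13.5% and 8.65% without. In each of these pairs the PMA and untreated libraries did not overlap. The RAB3 genes shifted likewise, with RAB3A at 37.4% and 41.2% with PMA and 25.6% and 16.0% without, and RAB3D at 62.6% and 58.8% with PMA and 69.1% and 79.7% without. RAB4B made up 70.5% and 86.0% of the RAB4 pair with PMA, against 48.4% and 63.0% without, read-through entries left out. In untreated lot 2 the entry RAB4B-EGLN2 took 43.6 CPM, and the summed RAB4B level overlapped between the groups. The separation for RAB4 thus depends on how reads were split. RAB2B made up 18.0% and 14.1% of the RAB2 pair with PMA, against 11.1% and 4.03% without. The share of RAB5C overlapped, at 73.0% and 67.9% with PMA and 53.0% and 75.1% without. The share of RAB8B was separated only narrowly, at 38.4% and 25.1% with PMA and 25.0% and 7.59% without. Coding sequences within these pairs are 66.2% (RAB7), 69.6% (RAB33) and 69.4% (RAB27) identical, far below the RAB6 copies.

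**Figure D4:**
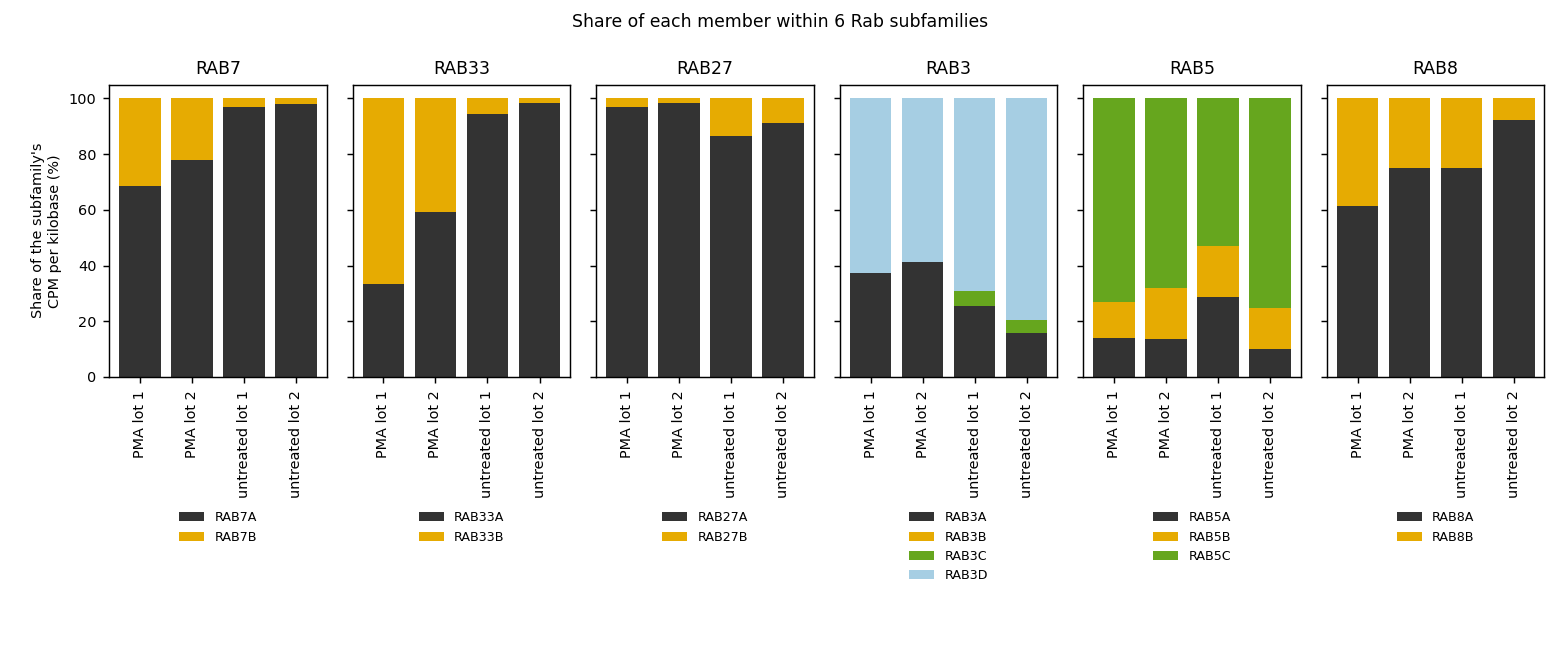
Share of each member in the summed CPM per kilobase of its subfamily (y axis, percent), in PMA lots 1 and 2 left of untreated lots 1 and 2, for 6 subfamilies. RAB7B took 31.4% and 22.0% of the RAB7 pair with PMA and 3.09% and 1.82% without, and RAB33A 33.5% and 59.4% of its pair with PMA and 94.3% and 98.3% without.

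The ratio of PMA to untreated was taken within each lot, with 0.5 counts added. The 6 called genes had the same direction in both lots, which had to hold and is no further support. Each had both PMA libraries on the same side of both untreated ones. For RAB17 and RAB3C, with a group at 0 counts, the size of the ratio depends on the added 0.5. For RAB32 the log2 ratio was -2.54 in lot 1 and -2.47 in lot 2, for RAB7B 4.33 and 3.69, for RAB44 -3.92 and -4.70, and for RAB33A -6.02 and -4.27. RAB13 had 4.75 and 1.97. The sign was the same in both lots for 44 of 52 genes (84.6%, against 74.5% of all genes). The exceptions were RAB1B, RAB3D, RAB4A, RAB7A, RAB11B, RAB24 and RAB33B, and RAB15, which was at 0 counts in both libraries of lot 2. The median log2 ratio was 0.49 in lot 1 and 0.91 in lot 2. Over the 41 Rab genes at 1 CPM or more in every library, the ratios of the lots had r = 0.830, a description across genes of 1 pair of libraries each.

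Base composition moved with the difference between the lots. Over the same 41 Rab genes, the log2 ratio of untreated lot 2 to untreated lot 1 had r = 0.616 with transcript GC content, against 0.474 over 11058 genes. For PMA lot 2 over PMA lot 1 r was 0.446, against 0.353 over 11058 genes. For PMA over untreated r was -0.060 in lot 1 and -0.27 in lot 2. With offsets that remove each library's trend in length and GC content, 8 Rab genes were higher (15.4%, against 8.04% of all genes) and 6 lower (11.5%, against 6.81%), with all 6 calls kept. With these offsets and the lot as a block, 1 was higher (1.92%, against 2.16%) and 1 lower (1.92%, against 0.883%), namely RAB7B and RAB44.

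**Figure D5:**
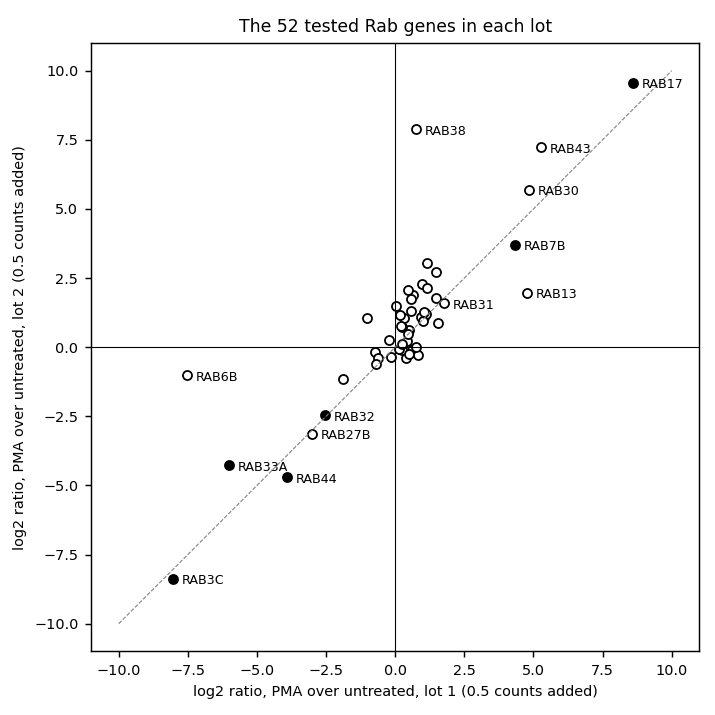
Log2 ratio of PMA over untreated for the 52 tested Rab genes in lot 1 (x axis) and lot 2 (y axis), with 0.5 counts added to each count, filled where called and a dashed line where both lots are equal. RAB32 (-2.54 and -2.47) lies near the line, and points far out with a count of 0 in 1 library, such as RAB6B and RAB38, depend on the added 0.5.

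The proteins that act on Rabs were described through 7 lists with 134 symbols, of which 133 were matched in the table, and 1 was not analysed here. Of these, 121 were tested, 2 were higher and 1 was lower, which is 2.48%, against 6.3% of all genes. Both PMA libraries lay above both untreated ones for 64 (52.9%, against 31% of all genes) and below for 17 (14%, against 29.4%). The median log2 fold change was 0.56, near that of the Rab genes. DESeq2 called 22 higher and 6 lower, which is 23.1% and so near the 23.6% of all genes. The number called changed when a single library was left out, and a group of 1 library has no spread of its own. The counts per list below are read against the shares over all genes. At an unadjusted p under 0.05 in edgeR's test these were 14.6% higher and 12.5% lower. By DESeq2 they were 13.2% higher and 10.4% lower, and 23.6% in either direction.

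SYTL3, a synaptotagmin-like effector of RAB27, rose. It was at 73.8 and 86.1 CPM with PMA, against 7.60 and 6.12 CPM without, with a log2 fold change of 3.54 ± 0.39 (SE) and an adjusted p of 0.0232 in edgeR's quasi-likelihood test. That call was lost without PMA lot 2 (adjusted p = 0.0539). MLPH, which links RAB27A to myosin, was at 5.22 and 9.56 CPM with PMA and 0.127 and 0 CPM without (adjusted p = 0.0659, edgeR), while SYTL1, another RAB27 effector, was at 0.706 and 3.03 CPM with PMA and 17.6 and 11.3 CPM without (adjusted p = 0.105, edgeR). The RAB27 effectors thus had values in both directions. In their list of secretion effectors 1 of 10 tested genes was higher (10%, against 4.29% of all genes) and 0 lower (against 2.02%). At an unadjusted p under 0.05 in edgeR's test 3 were higher (30%, against 14.6% of all genes) and 2 lower (20%, against 12.5%).

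RAB11FIP4, an effector of RAB11, rose as well. It was at 138 and 114 CPM with PMA, against 18.7 and 15.2 CPM without, with a log2 fold change of 2.89 ± 0.36 (SE) and an adjusted p of 0.0258 in edgeR's test. The call was lost without PMA lot 1 (adjusted p = 0.0884) and without PMA lot 2 (adjusted p = 0.0692). RAB11FIP1, of the same effector family, was at 172 and 129 CPM with PMA and 41.4 and 13.2 CPM without (adjusted p = 0.0822, edgeR). These groups did not overlap either. The list of early and recycling effectors held 1 call among 18 tested (5.56%, against 6.3% of all genes). At an unadjusted p under 0.05 in edgeR's test 5 were higher (27.8%, against 14.6% of all genes) and 0 lower. DESeq2 called 5 higher (27.8%, against 13.2% of all genes) and 0 lower.

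DENND1A, an exchange factor for RAB35, fell. It was at 33.7 and 37.7 CPM with PMA, against 124 and 118 CPM without, with a log2 fold change of -1.76 ± 0.32 (SE) and adjusted p-values of 0.0445 in edgeR's test and 0.0602 with the lot as a block. It was also lost without PMA lot 1 (adjusted p = 0.312) and without PMA lot 2 (adjusted p = 0.325). RIN2, an exchange factor for RAB5, was at 111 and 53.8 CPM with PMA and 0.665 and 0 CPM without, with adjusted p-values of 0.0578 in edgeR's test and 0.0449 with the block. ANKRD27, an exchange factor for RAB21 that also binds RAB32 and RAB38, was at 60.6 and 49.9 CPM with PMA and 456 and 149 CPM without (adjusted p = 0.0768, edgeR). HPS4, a subunit of the BLOC-3 exchange factor for RAB32 and RAB38, was at 24.8 and 32.3 CPM with PMA and 153 and 67.5 CPM without (adjusted p = 0.0852, edgeR). HPS1, the other BLOC-3 subunit, was at 286 and 298 CPM with PMA and 177 and 200 CPM without (adjusted p = 0.240, edgeR). ANKRD27 and HPS4 thus had lower values in both PMA libraries and HPS1 higher ones, and none of them passed. Among 32 tested exchange factors 0 were higher and 1 was lower, with 4 higher and 6 lower at an unadjusted p under 0.05 and 3 higher and 5 lower by DESeq2. Those are 12.5% and 18.8% at the unadjusted p and 25% by DESeq2, near the shares over all genes.

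The remaining lists held no call in edgeR's test. None of 30 tested GTPase-activating proteins was called. At an unadjusted p under 0.05 in that test 8 were higher (26.7%, against 14.6% of all genes) and 0 lower (against 12.5%). DESeq2 called 7 higher (23.3%, against 13.2% of all genes) and 0 lower (against 10.4%). TBC1D8 came nearest, at 145 and 138 CPM with PMA and 47.2 and 33.7 CPM without (adjusted p = 0.0501, edgeR). Of 16 effectors of late endosomes and of the HOPS and CORVET tethers none was called. At an unadjusted p under 0.05 in edgeR's test 3 were higher (18.8%, against 14.6% of all genes), and 2 by DESeq2 (12.5%, against 13.2%). VPS39 was at 212 and 181 CPM with PMA and 99.2 and 71.5 CPM without. Of 8 prenylation and GDP dissociation genes none was called. At an unadjusted p under 0.05 in edgeR's test 2 were higher (25%, against 14.6% of all genes), and 1 by DESeq2 (12.5%, against 13.2%). RABGGTA, a subunit of the enzyme that prenylates Rabs, was at 30.8 and 28.5 CPM with PMA and 12.6 and 15.3 CPM without (adjusted p = 0.154, edgeR). Of 7 Golgi effectors none was called. At an unadjusted p under 0.05 in edgeR's test 1 was higher (14.3%, against 14.6% of all genes), and 1 by DESeq2 (14.3%, against 13.2%). GCC2, a golgin, was at 66.8 and 39.0 CPM with PMA and 18.6 and 8.58 CPM without.

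The authors' deposited table, made from the same libraries and so not independent, marks the same 6 Rab genes as changed. That is 9.38% of the 64, against 2.22% of all 60662 entries. These sets are unlike, since 33746 of the 60662 entries were at 0 in all 4 libraries, against 7 of the 64 Rab genes. In the authors' deposited table RAB44 has a log2 ratio of -4.28 and a q-value of 7.66e-07, and RAB32, the last of the 6, has -2.52 and 0.0381. The next Rab gene in the authors' deposited table is RAB13, with a q-value of 0.111.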

How the data were processed

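Poly(A) RNA of 4 libraries was sequenced on an Ion Proton instrument, per the labels' protocols. HISAT2 2.1.0 and StringTie 2.1.1 are named, without roles, in the submitters' processing notes. For the genome build, annotation, counting program and strand use, the sources used here give nothing. The deposited gene table holds estimated counts per gene that the authors did not scale between libraries. These expected counts were already whole numbers. The authors' second deposited table holds a signal (the count times 1 factor per library), their log2 ratio, a p-value and a q-value for every gene, from a test they do not name there.

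All genes were fitted with edgeR 4.0.16 (R 4.3.3) by TMM scaling, filterByExpr on the groups and the quasi-likelihood test without a block, with Benjamini-Hochberg adjustment over 16451 genes and a threshold of 0.05. SE is the log2 fold change divided by the root of F. Transcript length (the longest protein-coding transcript) and exon overlaps came from GENCODE release 29, possibly another annotation than the authors used, with 58489 identifiers matched. The exons of 21 Rab genes overlap another gene with counts. Promoter windows came from RefSeq. Alternatives were RLE and upper-quartile scaling, other filters, DESeq2 1.42.0, limma-voom (limma 3.58.1), each library left out, library sizes computed after removing mitochondrial genes and the 20 most abundant genes, a threshold of 0.01 and the lot as a replicate block. Length and GC offsets (splines with 5 degrees of freedom) and summed read-through entries were added after seeing the data. The pairing comes from the lot numbers in the titles, and same-lot libraries deviated together with a correlation of 0.154 over genes.

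Named genes were those called, in each role group the 2 most abundant and the 2 with the smallest p, genes at 0 in 1 group, and up to 3 per regulator list. Other members named were chosen after their values were seen. Another B cell marker and 1 regulator are not reported here. The members and lists were chosen with earlier results of these data known.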

Additional observations from a re-analysis of the deposited data

How the results depend on the processing

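Of the 6 Rab calls, RAB44 and RAB7B held in 14 of 15 settings, RAB33A in 13, RAB32 in 11, RAB17 in 10 of 14 and RAB3C in 9 of 14. A filter of 5 CPM in 2 libraries leaves RAB17 and RAB3C untested, and gave 721 genes lower overall and 5 regulators and effectors higher and 3 lower. DESeq2 called 2127 genes higher and 1684 lower, 12 Rab genes higher, and 22 regulators higher and 6 lower. limma-voom called 1149 higher and 636 lower, 4 Rab genes higher and 5 regulators higher. At an adjusted p of 0.01 all counts are 0, against 2396 genes higher and 2049 lower at an unadjusted p under 0.05 by edgeR. Length and GC offsets gave 1312 higher and 1110 lower, 8 Rab genes higher, and 8 regulators higher and 5 lower.

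Leaving out 1 library at a time gave 424 to 1830 genes higher and 79 to 1085 lower, 1 to 10 Rab genes higher and 2 to 4 lower, 1 to 25 regulators higher and 0 to 3 lower, and a median Rab log2 fold change of 0.39 to 0.94. The lone library left in a group was then assumed to vary like the other group. The log2 fold change reversed for RAB7A (-0.065) and RAB8A (-0.011) with upper-quartile scaling. With 1 library left out it ranged over -0.14 to 0.34 for RAB7A (negative without untreated lot 1 and, at -0.11, without PMA lot 1), over -0.098 to 0.41 for RAB8A and over -0.25 to 0.72 for RAB1B (both negative without untreated lot 1). The summed Rab level of untreated lot 2 was 2681 CPM with upper-quartile scaling. The causes were not tested.

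With the replicate block by lot, 1 Rab gene was higher and 0 regulators were lower (8 regulators lower at an unadjusted p under 0.05 without the block). With the replicate block and the offsets, 353 genes were higher and 144 lower, 1 Rab gene higher and 1 lower, and 1 regulator higher. The block changed no other Rab call than those of RAB17 and RAB3C. Depth limits the members near 0, where 3 counts are the floor.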
